A study of Mus musculus with 22 samples.

Results

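The 10 genes described here encode the proteins that load the replicative helicase onto DNA and switch it on: Mcm2, Mcm3, Mcm4, Mcm5, Mcm6, Mcm7, Mcm10, Cdc6, Cdt1 and Cdc45. They were chosen by name, and all 10 were found among the 21674 protein-coding genes with symbols in the deposited tables and among the 21183 genes tested, of 46603 genes in the count table. RNA was sequenced from mouse CD8+ T cells, the T cells that recognise peptide on MHC class I, in 22 libraries from 8 mice. Cells from lymph nodes and spleen were enriched for naive CD8+ T cells by removing other cells on magnetic columns. They were sequenced directly (0 h) or after 24 h or 48 h of stimulation with anti-CD3 coated on plates (2 µg/ml) and anti-CD28 in solution (1 µg/ml), antibodies that act through the antigen receptor and through CD28.

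The libraries fall into 8 groups. The wt group (3 mice, labelled Tcaim KI Cd4Cre, wtcre) and the KI group (3 mice, Tcaim KI Cd4Cre, hocre) were each sampled as naive cells, at 24 h and at 48 h. The KO group (2 mice, Tcaim KO Cd4Cre, hocre) was sampled as naive cells and at 48 h. The labels place the mice in experiments 1, 3 and 5, with a wt and a KI mouse in each and a KO mouse in experiments 1 and 5. The wt and KI mice were male in experiments 1 and 3 and female in experiment 5, so experiment and sex cannot be told apart among them, and both KO mice were female. Their age is not given. Cd4Cre expresses Cre recombinase under Cd4 control and acts in developing T cells of both lineages, and Tcaim encodes a mitochondrial protein described as an inhibitor of T cell activation.

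Total counts were 62551905 to 93489115 per library. Tcaim averaged 14.8 ± 0.31 CPM (library-size-normalised counts; SD, n = 3) in wt naive cells and 141 ± 3.28 (n = 3) in KI naive cells. In the libraries labelled KO it averaged 17.2 ± 3.32 CPM (n = 2) in naive cells, and it was not called different from wt there (edgeR quasi-likelihood test, adjusted p = 1) or at 48 h (adjusted p = 0.841). The libraries are therefore called "labelled KO". Cd8a was at 697 CPM or more in every library, and the erythroid and platelet marker lists summed to at most 41.5 and 1.5 CPM. Over all genotypes the 5 myeloid markers summed to 93.1 to 254 CPM in naive libraries, 23.7 to 60.2 CPM at 24 h and 20.3 to 35.9 CPM at 48 h. The 3 NK cell markers summed to 219 to 282, then 52.7 to 111 and 123 to 308 CPM. Most of that sum was Nkg7, at 199 to 222, then 51.5 to 110 and 122 to 308 CPM. Ncr1 was at 5.02 to 38.1 CPM in naive libraries and at most 0.412 CPM at 48 h. Klrb1c went from 6.79 to 45.1 CPM in naive libraries to at most 0.730 CPM at 48 h. The 5 B cell markers summed to 134 to 1175 CPM in naive libraries and to 33.5 to 216 CPM at 48 h. These levels differ between naive and stimulated libraries, and their part in the naive-to-stimulated results was not tested. The B cell and Cd4 levels also differed between mice, with both the Cd4 and the B cell level of the mouse labelled KO in experiment 1 above those of the other mouse labelled KO (Cd4 at 48 h, 152 against 15.6 CPM).

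Before S phase the origin recognition complex, with Cdc6 and Cdt1, loads a pair of MCM hexamers at each origin, a step called licensing. Each hexamer holds 1 copy each of Mcm2 to Mcm7. In S phase the hexamer is switched on as it binds Cdc45 and the GINS complex, with Mcm10 acting late in that step. Quiescent T cells do not license origins, and they build up these factors as they enter the cell cycle after antigen receptor signals. E2F transcription factors are known to drive many of the genes.

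Sequence that the counts do not use is shown first, since the 10 genes rose together and several are known E2F targets. Promoter windows of 300 bases, from 250 before to 50 after the start, were taken from RefSeq on GRCm38.p6 and were found for 9 of the 10 genes, with 2 for Mcm7. Both strands were searched for 4 E2F-type 8-base words (TTTCCCGC, TTTGGCGC, TTTCGCGC and TTTGCCGC, capitals below). At least 1 of them was present in 6 of the 9 genes (Mcm3, Mcm5, Mcm6, Mcm7, Cdc6 and Cdt1). By window this was 6 of 10, against 2.27% of all 32841 windows searched. E2F control of several of these genes was known when the words were chosen, so the excess is not separate support for it. At least 2 start positions were found in Mcm3, Mcm5, Mcm6 and Mcm7, against 0.0974% of windows, and Mcm6 had 3. Words on opposite strands can share bases, as in Mcm5 and Mcm6, where the pairs overlap by 4 bases. The word CCAAT, read on either strand, was present in 7 of the 9 genes and 8 of their 10 windows, against 37.4% of windows. Mcm5 and Mcm6 are printed because of these clusters, and Mcm10 because the gene that rose most held none of the 4 words in its window.
Mcm5 promoter, chr8:75109259-75109508, plus strand: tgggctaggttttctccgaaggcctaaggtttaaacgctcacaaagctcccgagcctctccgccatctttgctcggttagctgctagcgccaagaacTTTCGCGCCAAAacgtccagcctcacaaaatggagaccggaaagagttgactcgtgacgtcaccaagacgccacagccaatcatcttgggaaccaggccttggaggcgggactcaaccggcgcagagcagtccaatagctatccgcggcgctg
Mcm6 promoter, chr1:128359706-128359955, minus strand: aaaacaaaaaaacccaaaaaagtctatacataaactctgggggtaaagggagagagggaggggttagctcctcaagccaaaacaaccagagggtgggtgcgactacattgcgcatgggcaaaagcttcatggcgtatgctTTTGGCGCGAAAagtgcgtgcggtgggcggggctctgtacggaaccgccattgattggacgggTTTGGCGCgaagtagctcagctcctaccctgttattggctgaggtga
Mcm10 promoter, chr2:5012792-5013041, minus strand: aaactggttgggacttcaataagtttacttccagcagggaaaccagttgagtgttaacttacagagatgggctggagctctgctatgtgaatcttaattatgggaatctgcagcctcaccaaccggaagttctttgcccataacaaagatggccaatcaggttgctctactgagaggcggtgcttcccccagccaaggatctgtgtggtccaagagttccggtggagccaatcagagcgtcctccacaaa

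Shorter stretches show the matches in 4 other genes. In Mcm3 both words lay after the start, at bases 20 to 27 and 39 to 46 counted from 1 at the start. In Mcm7 they lay 165 to 158 bases before it and at bases 17 to 24 after it. The Cdc6 word lay 138 to 131 bases before the RefSeq start, and the Cdt1 word at bases 33 to 40. For Cdc6 and Mcm7 the RefSeq start used lies inside the gene span that the authors' tables give. For Mcm5 and Mcm6 the start used lies outside that span. The bases checked at the end of the Mcm5 and Mcm6 windows were not found in an annotated transcript of the gene.
Mcm3, chr1:20820280-20820299, minus strand: tccgtgGCGGGAAAacttgg
Mcm3, chr1:20820263-20820280, minus strand: ggaagtTTTGGCGCcaag
Mcm7, chr5:138172035-138172054, minus strand: cgaaccGCGGGAAAcagggt
Mcm7, chr5:138171854-138171873, minus strand: acgacgTTTCGCGCcaattt
Cdc6, chr11:98908007-98908026, plus strand: tggagaGCGGGAAAtcgcct
Cdt1, chr8:122568041-122568060, plus strand: taccttTTTGGCGCcatggc
A word is a match of letters only, and Mcm2, Mcm10 and Cdc45, with none in the window, were also called higher after stimulation.

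All 10 genes were called higher (adjusted p under 0.05) in wt cells at 24 h than in naive cells, in a table in which 26.3% of the tested genes were called higher. The median log2 fold change was 3.10, with a range from 0.90 to 6.77, against -0.05 over all genes tested. At 48 h all 10 were again called higher, against 29.5% of genes, with a median of 2.66. These comparisons share the naive libraries. In bulk RNA a higher level per cell and a larger share of cells with the transcript cannot be told apart.

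**Figure D1:**
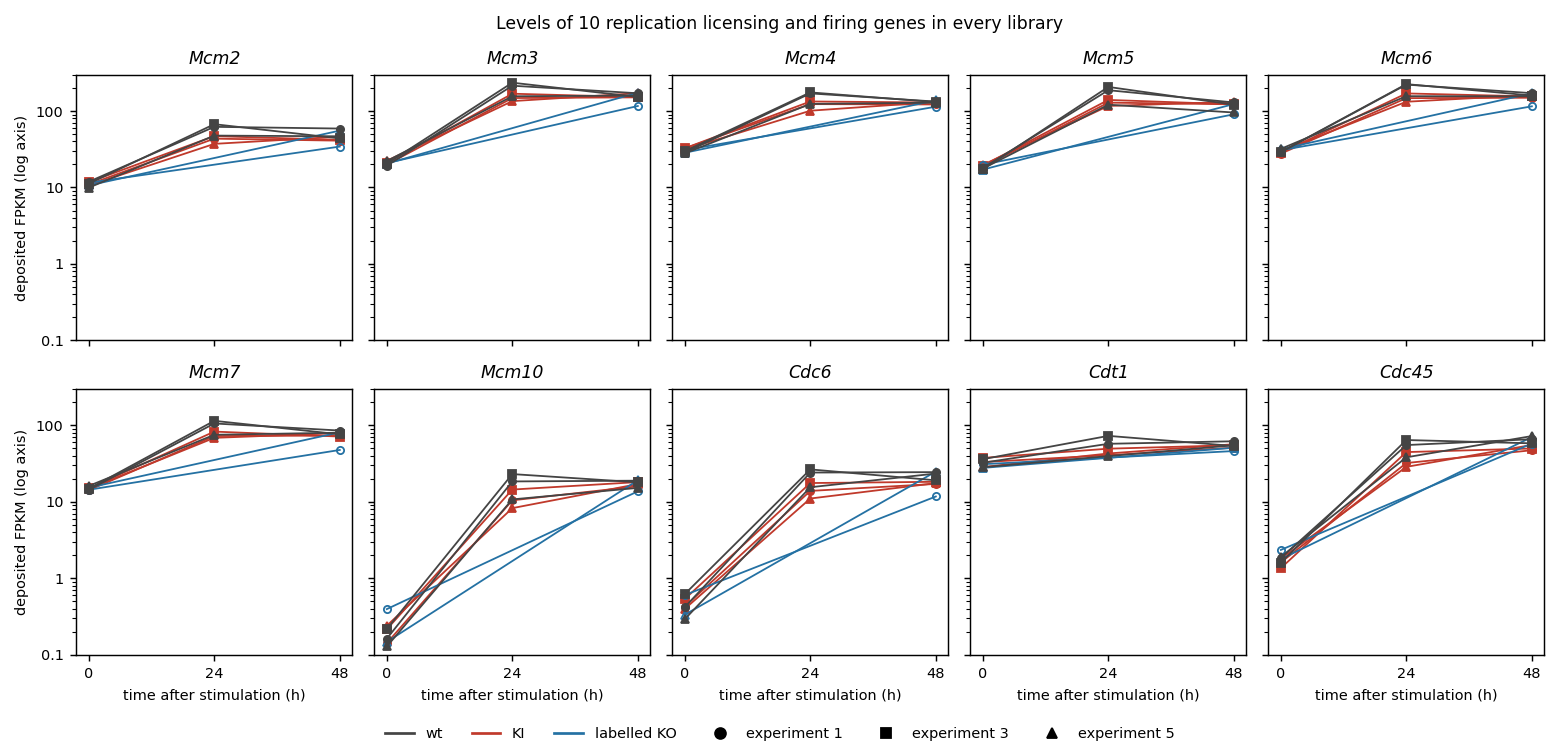
Deposited FPKM on a log axis against hours of stimulation, 1 panel per gene, with 1 point per library and lines joining the libraries of a mouse. Mcm10, Cdc6 and Cdc45 start between 0.129 and 2.36 and the other genes between 9.95 and 37.6.

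Mcm10, Cdc6 and Cdc45 were close to silent in naive cells. Mcm10, which binds the activated helicase, was at 1.06, 1.39 and 0.839 CPM in the 3 wt naive libraries and at 127, 158 and 75.0 CPM at 24 h in experiments 1, 3 and 5. Its log2 fold change of 6.77 (SE 0.383, adjusted p = 2.76e-10) was the largest of the 10. Cdc6, the ATPase that joins the origin recognition complex to recruit the hexamer, went from 1.86, 2.71 and 1.30 to 113, 123 and 73.5 CPM. Every 24 h library lay far above every naive one, and the log2 fold change was 5.72 (SE 0.343, adjusted p = 5.35e-10).

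Cdc45, the helicase cofactor that enters at firing, was at 3.51, 3.01 and 3.64 CPM in naive wt cells and at 111, 129 and 78.0 CPM at 24 h. Its log2 fold change was 4.97 (SE 0.215, adjusted p = 1.94e-11), and at 48 h it stood at 132, 118 and 146 CPM. No naive library of any genotype exceeded 4.43 CPM. Exons of Cdc45 share 209 bases with Ufd1 on the opposite strand, and whether counting used strand is not given, so a part of its reads could belong to Ufd1.

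The 6 hexamer genes were already expressed in naive cells. In wt naive cells they averaged between 50.8 ± 1.4 CPM (Mcm5; SD, n = 3) and 118 ± 7.55 CPM (Mcm6), and at 24 h between 367 ± 59.6 (Mcm2) and 837 ± 154 CPM (Mcm6). Their log2 fold changes ran from 2.51 (Mcm2, SE 0.170) to 3.38 (Mcm3, SE 0.162). Mcm5 was at 51.9, 49.2 and 51.2 CPM in naive cells and at 572, 627 and 374 CPM at 24 h. Mcm3, by comparison, was at 60.9, 63.9 and 70.6 and then at 718, 780 and 529 CPM. The naive values of both lay close together, while the 24 h values were spread, with experiment 5 lowest in both. Exons of Mcm7 overlap Ap4m1 by 321 and Cops6 by 64 bases on the opposite strand and hold Mir25 and Mir93, so its counts are uncertain in the same way.

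In CPM, which are not corrected for gene length, the naive level of Cdt1 lay within the range of the hexamer genes. Cdt1, the licensing factor that is destroyed in S phase and held by geminin, changed least of the 10. It was at 60.1, 66.0 and 52.7 CPM in wt naive cells and at 112, 142 and 78.6 CPM at 24 h, which on the log2 scale is 0.90 higher (SE 0.163, adjusted p = 1.81e-04). Naive and 24 h values did not overlap. At 48 h it stood at 121, 106 and 108 CPM.

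**Figure D2:**
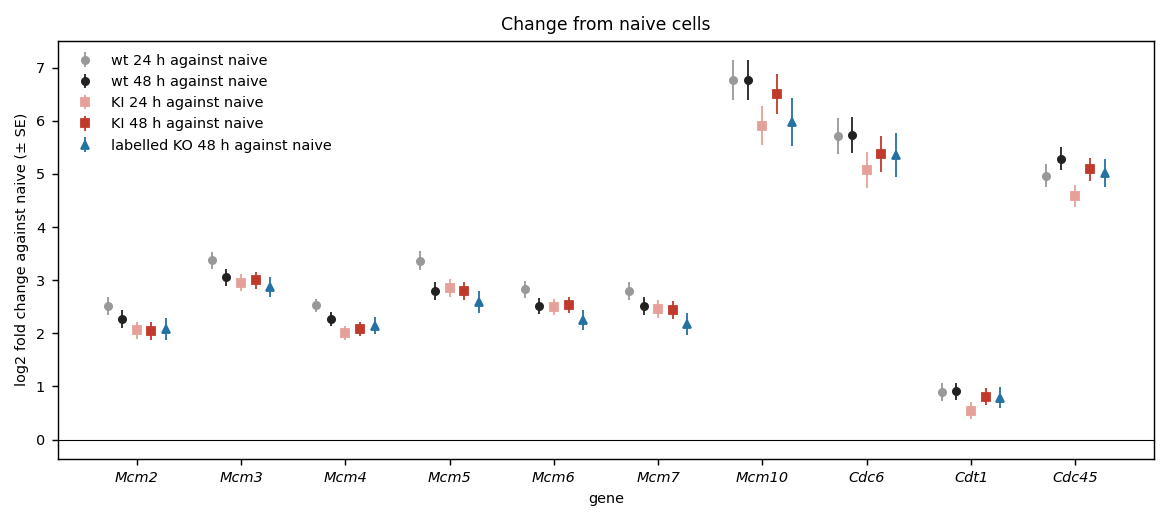
Log2 fold change against naive cells of the same genotype with its standard error, for 5 comparisons (points) and 10 genes (horizontal axis). Mcm10, Cdc6 and Cdc45 lie between 4.58 and 6.77, the hexamer genes between 2.01 and 3.38, and Cdt1 between 0.54 and 0.91.

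The genes also rose in KI and labelled KO cells. In KI cells all 10 were called higher at 24 h (22.9% of genes were) and at 48 h (26.6%), with medians of 2.68 and 2.67. In libraries labelled KO all 10 were called higher at 48 h against naive (23.6% of genes were), with a median of 2.43. Cdt1 was again the smallest, at 0.54 (SE 0.162, adjusted p = 0.0124) in KI cells at 24 h and 0.79 (SE 0.199, adjusted p = 0.00365) in labelled KO cells at 48 h. The Cdt1 call in KI cells at 24 h was lost when any 1 KI mouse was left out (adjusted p 0.0556 to 0.0875) and with upper-quartile factors (0.0707). The Cdt1 call in labelled KO cells was lost without the labelled KO mouse of experiment 5 (0.0813) and when only the groups compared were fitted (0.116).

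Levels of different genes were compared per length, as deposited FPKM. In wt naive cells Cdt1 averaged 32.4 ± 3.91 FPKM (SD, n = 3), Mcm6 30.0 ± 1.71 and Mcm4 28.8 ± 0.955, and their ranges overlapped. Mcm3 (20.6), Mcm5 (17.6), Mcm7 (15.1) and Mcm2 (11.02) followed with no overlap between neighbours. Cdc45 at 1.79, Cdc6 at 0.446 and Mcm10 at 0.170 FPKM stood lowest, again without overlap.

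At 24 h the order in wt cells was Mcm3 (202), Mcm6 (201), Mcm5 (172) and Mcm4 (156 FPKM), with overlapping ranges, then Mcm7 (98.8), Mcm2 (59.0), Cdt1 (56.8), Cdc45 (52.7), Cdc6 (22.1) and Mcm10 (17.5). The ranges of Mcm2 and Cdt1, of Cdt1 and Cdc45, and of Cdc6 and Mcm10 overlapped. The place of Cdt1 in naive cells depends on the gene length used. As CPM per kilobase of all annotated exons it averaged 18.97 in wt naive cells, below Mcm6 (25.3) and Mcm4 (24.2). By deposited FPKM, its level was 135% to 177% of the mean of Mcm2 to Mcm7 in wt naive libraries, 35.0% to 42.8% at 24 h and 47.3% to 49.8% at 48 h. In KI libraries the same share was 133% to 176%, then 36.9% to 43.7% and 46.6% to 49.2%, overlapping with wt at each time.

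By deposited FPKM the hexamer genes did not reach equal levels although the complex holds them in equal number. On that scale Mcm2 was the lowest of the 6 in all 22 libraries, and the highest gene exceeded it by 2.44 to 3.70 times. The coefficient of variation over the 6 genes was 35.5% to 42.4% in every library, naive or stimulated. These figures depend on the gene length used. Annotated exons cover 6956 bases in Mcm2, against 3589 (Mcm4) to 4666 (Mcm6) in the other hexamer genes. In CPM Mcm2 averaged 64.5 in wt naive cells, above Mcm5 (50.8) and Mcm7 (56.4). At 24 h it averaged 367 CPM, below Mcm7 (391). A library's summed FPKM over the 6 genes was 121, 123 and 126 in wt naive cells of experiments 1, 3 and 5, then 961, 1023 and 680 at 24 h and 749, 684 and 666 at 48 h.

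Between 24 h and 48 h the fitted changes in wt cells were negative for the hexamer genes and close to 0 or positive for the other 4. All 6 hexamer genes had negative log2 changes, from -0.24 (Mcm2) to -0.57 (Mcm5), while Cdc45 had 0.32 (SE 0.180, adjusted p = 0.326) and Mcm10, Cdc6 and Cdt1 moved by 0.02 or less. The Mcm5 fall was the only call (SE 0.160, adjusted p = 0.0356), 1 of 10 against 3.41% of genes called lower. Mcm5 was at 572, 627 and 374 CPM at 24 h and at 394, 373 and 292 CPM at 48 h, lower at 48 h in each of the 3 mice, though the ranges overlapped. The Mcm5 adjusted p was 0.225 without the wt mouse of experiment 1, 0.177 without that of experiment 3, and 0.212 with only the 2 groups compared.

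**Figure D3:**
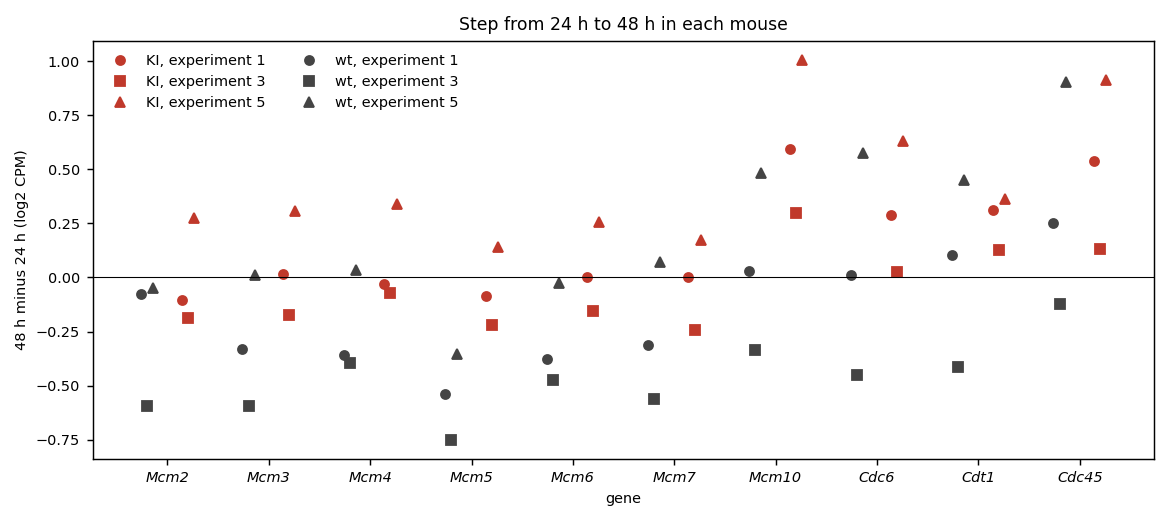
Change from 24 h to 48 h in log2 CPM within each mouse (points) for the 10 genes (horizontal axis), wt and KI. The wt mice of experiments 1 and 3 are below 0 for all 6 hexamer genes, and the KI mouse of experiment 5 is above 0 for all 10 genes.

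The step differed between mice. In wt mice 6 of 10 genes were lower at 48 h in experiment 1, all 10 in experiment 3 and 3 in experiment 5. In KI mice the counts were 3, 6 and 0 of 10. In KI cells edgeR called none of the 10 between 24 h and 48 h, against 2.68% of genes, and DESeq2 called 0. In edgeR 1 gene, Cdc45, had an unadjusted p under 0.05, against 3288 of all 21183 genes. Its log2 change was 0.51 (SE 0.180, adjusted p = 0.154). The KI-by-time interaction from 24 h to 48 h was positive for all 10 genes, with a median of 0.30. In edgeR it called 0 of them against 0.00472% of genes, and DESeq2 also called 0. In edgeR 1 of the 10 had an unadjusted p under 0.05, against 1199 of all 21183 genes. The 24 h libraries are also those of the KI against wt comparison at 24 h below, so the signs of the 2 are not separate results. Leaving out experiment 5, a choice made after seeing the data, 5 genes were called lower at 48 h in wt cells (Mcm3 to Mcm7, from -0.38 for Mcm4 to -0.64 for Mcm5), against 4.83% of genes. That fit drops the wt mouse with the fewest genes lower at 48 h.

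At 24 h the KI values of all 10 genes lay below those of wt cells on average, but no difference passed the test. The log2 differences ran from -0.62 (Mcm10, SE 0.291) to -0.31 (Cdt1, SE 0.161), with a median of -0.38 against 0.01 over all genes tested. edgeR called 0 of 10, against 0.00472% of genes in the table, with 9 unadjusted p under 0.05 and a smallest adjusted p of 0.436 (Cdc45, -0.54, SE 0.180). DESeq2 also called 0, with 10 unadjusted p under 0.05. In edgeR 1903 of all 21183 genes tested had an unadjusted p under 0.05. Mcm2 was at 277, 297 and 241 CPM in KI cells and 386, 415 and 300 CPM in wt cells, and was the only gene of the 10 with every KI library below every wt library, a pattern that 9.41% of tested genes showed. Cdc45 was at 66.5, 91.8 and 60.3 CPM in KI and 111, 129 and 78.0 in wt cells, so that KI experiment 3 lay above wt experiment 5.

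**Figure D4:**
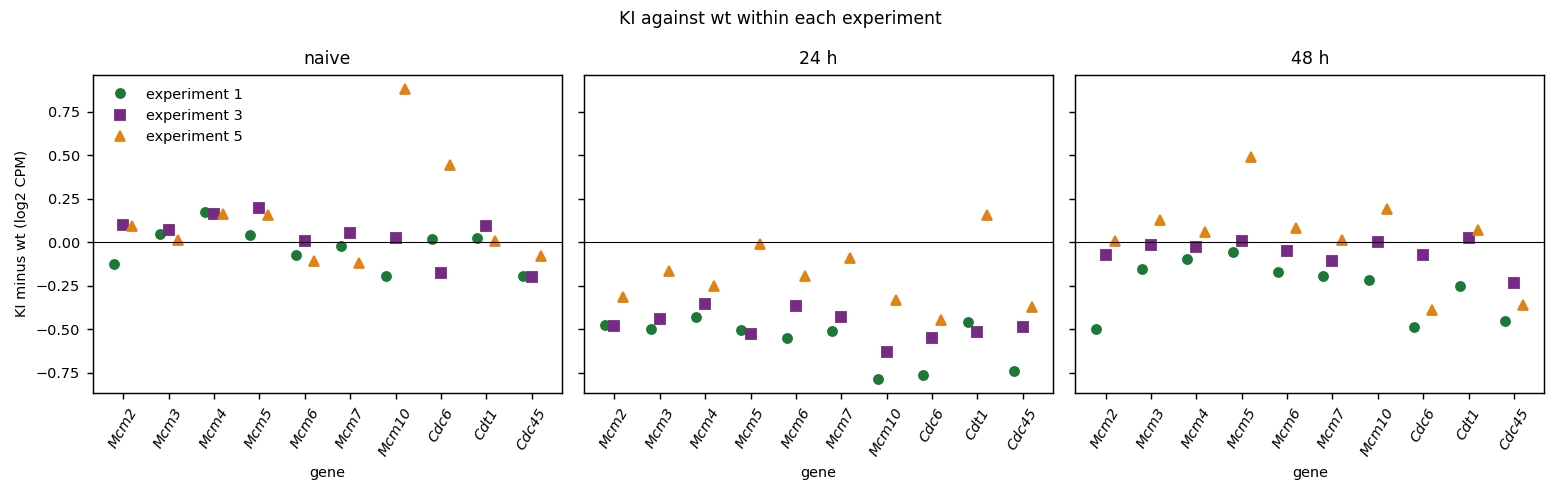
KI minus wt in log2 CPM within each experiment (points) for the 10 genes (horizontal axis), in naive cells, at 24 h and at 48 h. At 24 h all points are below 0 except Cdt1 in experiment 5, at 0.16.

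Each experiment pairs a wt with a KI mouse. Within experiments 1, 3 and 5 the median KI minus wt difference at 24 h was -0.51, -0.48 and -0.22 on the log2 scale. Of the 10 genes 10, 10 and 9 were lower in KI. Here and below, such a difference sets 1 library against 1 library, and the 10 genes are not separate observations of it. The share of all genes lower within each pair is not given. Experiment 5, of female mice, held the lowest wt level at 24 h for all 10 genes and the lowest KI level for 9. Without it, in a fit added after seeing the data, 5 of the 10 genes were called lower in KI (Mcm3 to Mcm7, adjusted p 0.0272 to 0.0461), against 0.206% of genes called lower. Their log2 differences there were -0.39 (Mcm4) to -0.52 (Mcm5), and Mcm2, at -0.48, had an adjusted p of 0.0789. The fit without experiment 5 keeps only the mice of experiments 1 and 3, and drops the experiment with the smallest median difference. It is therefore not separate support for a difference. Neither fit tests whether the difference depends on experiment or sex.

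From naive cells to 24 h the KI-by-time interaction was negative for all 10 genes, with a median of -0.44. It called 0 of them against 0% of genes, with 2 unadjusted p under 0.05 (Mcm4 and Mcm5, against 694 of all 21183 genes), and DESeq2 called 0. This interaction shares its 24 h libraries with the KI against wt comparison at 24 h, so its sign is not a separate result either. From naive cells to 48 h the interaction called 0 of 10, against 0.387% of genes, with none under 0.05 unadjusted, DESeq2 also at 0 and a median of -0.14.

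In naive cells no gene of the 10 was called between KI and wt. edgeR called 0 of 10 (0.113% of genes were called), none had an unadjusted p under 0.05, DESeq2 called 0, and the median was 0.04. Mcm4 was at 97.9, 99.8 and 95.3 CPM in KI and 86.7, 89.2 and 85.1 in wt cells, and Mcm5 at 53.4, 56.4 and 57.1 against 51.9, 49.2 and 51.2. These 2 genes had every KI library above every wt library, as 6.56% of genes did, with log2 differences of 0.17 (SE 0.122) and 0.13 (SE 0.160).

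At 48 h the median difference was -0.05, with 9 of 10 genes lower in KI. Within experiments 1, 3 and 5, 10, 8 and 2 of the 10 genes were lower in KI, with medians of -0.21, -0.04 and 0.06, so that experiment 5 lay in the other direction. edgeR called 0 of 10 in a comparison that called 4.17% of genes, with no unadjusted p under 0.05, and DESeq2 called 0. Cdc6 was at 81.4, 85.6 and 83.5 CPM in KI and 114, 90.2 and 110 in wt cells (-0.33, SE 0.276). Cdc45 was at 96.6, 101 and 114 against 132, 118 and 146 CPM (-0.35, SE 0.180, adjusted p = 0.320). Both had every KI library below every wt library, as 9.78% of genes did.

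In libraries labelled KO, naive cells gave 0 calls of 10 (0.0236% of genes were called), with no unadjusted p under 0.05 and a median of 0.06, and DESeq2 called 0. The highest naive value of Mcm10 in the series, 2.55 CPM, came from the mouse labelled KO in experiment 1, whose B cell markers summed to 1175 CPM. The other mouse labelled KO had 0.978 CPM of Mcm10 and 134 CPM of the markers. The part of B cells in the Mcm10 value was not tested.

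At 48 h edgeR called 0 of 10 between labelled KO and wt cells (0.0283% of genes were called), with no unadjusted p under 0.05, and DESeq2 called 0. The median was -0.17, and all 10 differences were negative. The 2 libraries were far apart. Mcm7 was at 187 CPM in experiment 1 and 319 CPM in experiment 5, against 338, 305 and 318 CPM in wt cells. Cdc6 was at 54.3 and 116 CPM against 114, 90.2 and 110. Cdt1, at 89.4 and 99.2 against 121, 106 and 108 CPM, was the only gene of the 10 with both labelled KO libraries below every wt library, as 4.71% of genes were.

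Within experiment 1 all 10 genes were lower in labelled KO than in wt cells, with a median of -0.55, and within experiment 5 2 of 10 were lower, with a median of 0.10. The library of experiment 1 was the lower of the 2 for all 10 genes, and it had 152 CPM of Cd4 and 206 CPM of B cell markers, against 15.6 and 33.5 CPM in the other. The part of these cells in the difference was not tested. In experiment 1 the mouse labelled KO was female and the wt mouse male, so genotype and sex cannot be told apart in that pair. In experiment 5 both mice were female. Fitted without the labelled KO library of experiment 5, 4 genes were called lower (Mcm2, Mcm6, Mcm7 and Cdc6), against 11.9% of genes, and without that of experiment 1 none was and 8 of 10 differences were positive. Each of these fits leaves 1 labelled KO library at 48 h, assumed to vary like the other groups. The interaction of labelled KO with time called 0 of 10 against 0% of genes, with none under 0.05 unadjusted, and DESeq2 called 0.

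The other genes of replication, 70 in 9 lists chosen with earlier results of these data known, gave 61 higher and 2 lower calls in wt cells at 24 h and 63 higher and 0 lower at 48 h. Of all genes tested 26.3% were called higher and 22% lower at 24 h, and 29.5% and 26.8% at 48 h, the shares against which each count by list is to be read. The median log2 fold changes of the 70 genes were 1.85 and 1.86. Of the 6 subunits of the origin recognition complex, which marks origins, all 6 rose at 48 h, with Orc1 going from 1.68 to 49.5 CPM (log2 4.88, SE 0.330), and Orc6 from 21.1 to 103 CPM (2.29, SE 0.146). Of the GINS subunits and the Dbf4-dependent kinase that triggers firing, all 6 rose, with Gins1 at 4.24 (SE 0.209) and Cdc7, the kinase, at 1.68 (SE 0.159).

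Among 5 scaffolds that bring Cdc45 and GINS to the hexamer, 4 rose, with Recql4 at 3.59 (SE 0.228) and Mtbp at 2.2 (SE 0.159). Of 7 genes that restrain licensing or act in turnover of Cdt1 or Cdc6, 7 rose at 48 h. These include Gmnn, which encodes geminin, the inhibitor of Cdt1, at 3.81 (SE 0.177, from 7.31 to 102 CPM), and Dtl, the adaptor that marks Cdt1 for destruction at forks, at 6.02 (SE 0.352, from 2.19 to 141 CPM). Cdt1 itself had 0.91 in the same comparison. Of the 3 other MCM genes and partners 2 rose, Mcm8 at 3.69 (SE 0.206) and Mcmbp, an MCM-binding protein, at 0.65 (SE 0.121).

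At the fork, 10 of 11 polymerase and primase genes rose, with Prim1 at 2.41 (SE 0.150) and Prim2 at 2.71 (SE 0.171), the primase subunits. All 15 fork and clamp factors rose, with the clamp loader subunit Rfc4 at 2.97 (SE 0.166) and the DNA ligase Lig1 at 3.67 (SE 0.209). All 6 nucleotide supply genes rose, with the ribonucleotide reductase subunits Rrm1 at 3.88 (SE 0.261) and Rrm2 at 6.02 (SE 0.449). Of 11 E2F and pocket protein genes 7 rose, with E2f1 at 4.24 (SE 0.261) and E2f8, a repressor E2F, at 5.72 (SE 0.518). The 2 lower calls at 24 h were E2f5 (-0.44, SE 0.167, adjusted p = 0.0387) and the pocket protein gene Rbl2 (-0.60, SE 0.222, adjusted p = 0.0316), named after their values were seen. The E2f5 call was lost on leaving out any 1 wt mouse and without a filter on low counts, and the Rbl2 call without the wt mouse of experiment 1 or 3.

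**Figure D5:**
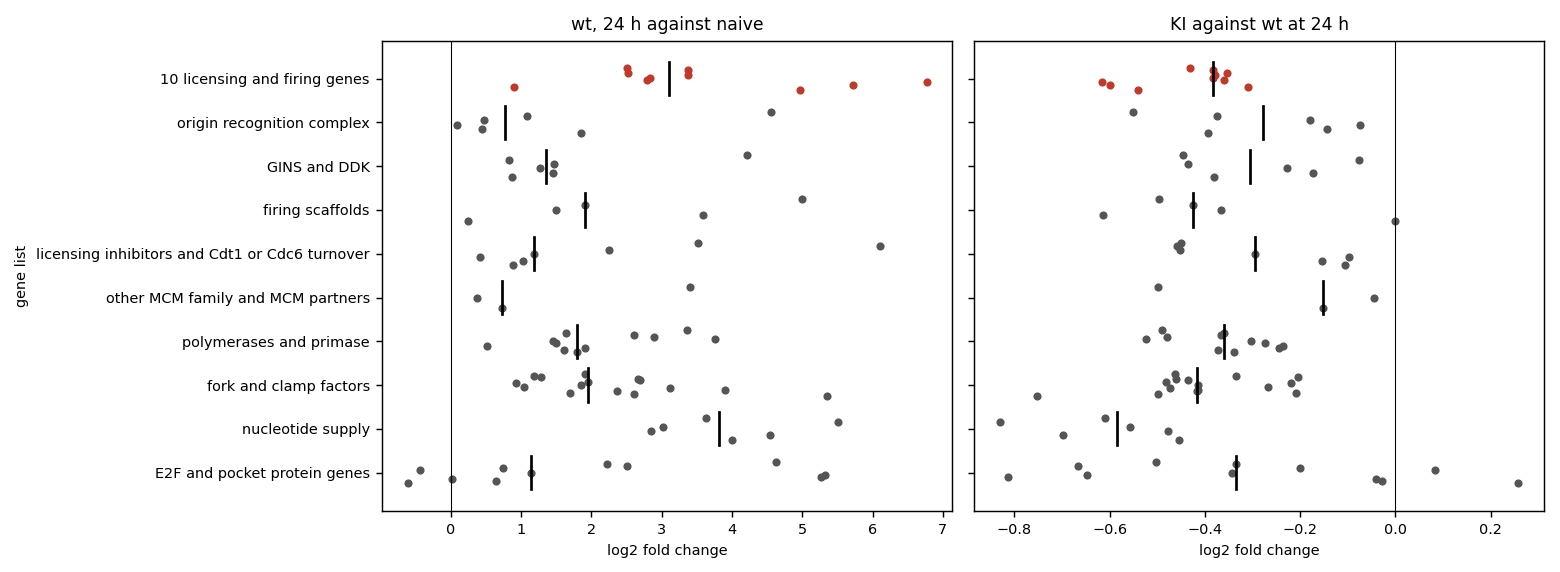
Log2 fold change of each gene (points) in the 10 licensing and firing genes and in 9 lists of other replication genes, with the median of each as a bar, for wt cells at 24 h against naive and for KI against wt at 24 h. At 24 h 67 of the 70 list genes are negative in KI against wt.

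Between KI and wt at 24 h edgeR called 0 of the 70 genes, 28 had an unadjusted p under 0.05, DESeq2 called 0, and 67 were negative, with a median of -0.38. Of all 21183 genes tested 1903 had an unadjusted p under 0.05 in edgeR, and the median over all of them was 0.01. At 48 h 61 of 70 were negative, with a median of -0.26, and 1 was called, Orc5 (-0.48, SE 0.115, adjusted p = 0.0229; 55.7 CPM in wt and 40.0 in KI cells). This 1 call of 70 is not above the share of all genes, of which 4.17% were called, 1.89% lower. The Orc5 call was lost without a filter on low counts, with only the groups compared, and on leaving out any 1 mouse other than the wt mouse of experiment 3. From 24 h to 48 h Dbf4, the kinase activator, rose in wt cells (0.83, SE 0.180, adjusted p = 0.00858) and in KI cells (0.85, SE 0.180, adjusted p = 0.0153), and Fzr1, which activates the complex that degrades geminin, rose in KI cells (0.73, SE 0.167, adjusted p = 0.0227). Of all genes 4.08% were called higher in wt and 1.71% in KI cells, so 1 of 70 and 2 of 70 are not a result about the lists. In KI cells both calls were lost on leaving out any 1 KI mouse (adjusted p 0.0601 to 0.301 for Dbf4 and 0.113 to 0.379 for Fzr1). In wt cells the Dbf4 call was lost without the mouse of experiment 1 (0.190) or 5 (0.128) and with only the groups compared (0.0772). Dbf4 and Fzr1 were named after their values were seen.

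The genes whose pattern over the 8 group means was closest to the average of the 10, measured as root mean square difference of centred log2 CPM among 14311 genes, were Tcf19 (0.093), Cenps (0.114), Hacd1 (0.128), Fabp5 (0.138) and Dscc1 (0.142). The median over all genes compared was 1.6. The 10 genes themselves lay at 0.135 (Mcm3) to 1.49 (Mcm10) from their own average. Dscc1 encodes a subunit of an alternative clamp loader and Cenps a centromere protein. Tcf19, Hacd1 and Fabp5 were named by the same rule, and no shared function is read from this closeness.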

How the data were processed

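Counts per gene in 22 libraries were deposited by the authors as a table of whole numbers, with a table of log2 values and one of FPKM also deposited. Per the submitters' processing notes, bcl2fastq 2.20.0, TopHat2 2.1.0, Bowtie2 2.2.5, SAMtools 0.1.19, featureCounts and DESeq2 1.6.3 were used, with GRCm38 and mm10 named as builds. Strand use in counting and the annotation release are not given in the sources used here. The deposited log2 values, checked here, are those of counts scaled by a factor for each library, with 1 added before taking the log (largest difference 5.3e-14). The deposited FPKM were proportional, gene by gene, to those normalised counts and were used to compare levels between genes, with no test.

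The counts were fitted here with edgeR 4.0.16 (R 4.3.3) after filterByExpr (minimum count 10, minimum total 15), with TMM factors and the robust quasi-likelihood F test on 8 group means (14 residual degrees of freedom). Genes were called at a Benjamini-Hochberg adjusted p under 0.05 over all 21183 genes tested. CPM use TMM-adjusted library sizes, and log2 CPM a prior count of 2. The fit was tested on simulated counts of independent libraries, with changes larger than the KI differences of the 10 genes. It therefore does not show how often differences of that size are missed.

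The members and lists were chosen with earlier results of these data known. All 10 members were named in every comparison, with at most 2 genes per list and direction by smallest p in wt cells at 48 h against naive, list genes called between genotypes, the 5 genes of closest pattern and Tcaim. The labels place wt, KI and KO mice in shared experiments, and mice were paired by these labels. Deviations of same-experiment wt and KI libraries correlated at r over 0.1 in 8 of 9 pairs, with a median of 0.22. Pairs from different experiments are not given, so these correlations alone do not show a pairing. The main fit held no block for experiment or mouse, and so treats the libraries of 1 mouse as independent. The replicates are separate mice. Alternatives were other scaling factors, no filter, experiment or mouse as a block, only the groups compared, leaving out each mouse, and DESeq2 1.42.0, and, added after seeing the data, leaving out experiment 5. Unused sample columns numbered 0.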

Additional observations from a re-analysis of the deposited data

How the results depend on the processing

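The calls against naive cells held in all settings for every gene but Cdt1. From 24 h to 48 h in wt cells the number of the 10 genes called was 1 with all 22 libraries, 0 with only the groups compared, 0 to 1 with 1 mouse left out and 5 without experiment 5. Between KI and wt at 24 h it was 0, and 5 without experiment 5. Between labelled KO and wt at 48 h it was 0, and 0 to 4 with 1 mouse left out, the 4 coming without the labelled KO mouse of experiment 5. Of the 70 list genes, 1 was called in wt cells from 24 h to 48 h, against 2 with experiment as a block, 3 with mouse as a block, 0 with only the groups compared, 0 to 2 with 1 mouse left out, 5 with DESeq2 and 7 without experiment 5. Between KI and wt at 48 h 1 was called, against 0 with no filter or only the groups compared, 0 to 3 with 1 mouse left out, 3 with DESeq2 and 8 without experiment 5, where 8.51% of all genes were called. At 24 h 0 were called, and 2 without experiment 5, a fit in which 0.206% of all genes were called lower. Between labelled KO and wt at 48 h 0 were called, and 0 to 29 with 1 mouse left out. The 29 came without the labelled KO mouse of experiment 5, a fit that called 4765 of 22144 genes (21.5%), against 6 of 21183 with all libraries. The cause was not tested. The share of all genes called also changes with the fit, so a larger count of list genes is not more of a result. From 24 h to 48 h in wt cells 7.49% of all genes were called with all libraries. Those called lower were 3.41% with all libraries and 4.83% without experiment 5.

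Experiment as a block (all comparisons) and mouse as a block (comparisons of times within a genotype and interactions) changed no call among the 10 genes, and mice were paired by their labelled experiment. Some values that were not called changed sign, not all of them near 0. Over the other settings 14 of 110 did so in wt and 14 of 110 in KI cells from 24 h to 48 h. Between KI and wt it was 9 of 120 in naive cells and 11 of 130 at 48 h. Between labelled KO and wt it was 12 of 110 in naive cells and 10 of 110 at 48 h. Those given next are from wt cells over time and from KI against wt at 48 h. From 24 h to 48 h in wt cells Mcm10 was at 0.0058 with RLE factors, 0.0057 with DESeq2, 0.0038 with only the groups compared, 0.041 with experiment and 0.060 with mouse as a block. Cdc6 was at -0.014 with upper-quartile factors and -0.21 without experiment 5. Cdt1 was at -0.023 with upper-quartile factors, -0.0038 with no filter and -0.16 without experiment 5. Between KI and wt at 48 h Mcm3 was at 0.0058 and Mcm10 at 0.0057 with upper-quartile factors, and Mcm5 at -0.043 without experiment 5. With 1 mouse left out the wt change from 24 h to 48 h ran from -0.16 to 0.21 for Mcm10, -0.21 to 0.26 for Cdc6 and -0.16 to 0.26 for Cdt1, and the KI difference at 48 h from -0.088 to 0.027 for Mcm3, -0.060 to 0.0058 for Mcm4, -0.10 to 0.046 for Mcm10 and -0.10 to 0.0067 for Cdt1. The median KI minus wt difference in naive cells of experiment 3 was 0.060, and 0.012 with upper-quartile factors. With CPM per kilobase of all annotated exons 5 of 10 genes kept their FPKM rank in wt naive cells, and Cdt1 stood below Mcm6 and Mcm4 rather than highest.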
